A study of Xenopus laevis with 24 samples.

Results

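The Wnt pathway is described here in gastrula-stage *Xenopus laevis* embryos through 27 of the 31306 transcript records of the deposited expression table. A record was taken when its description named a Wnt ligand, a secreted Wnt inhibitor (Dickkopf, Frzb, crescent or a frizzled-related protein), dishevelled, dapper, axin, adenomatous polyposis coli, beta-catenin or a TCF or LEF factor, and when it averaged at least 0.5 FPKM over all libraries (a unit of fragments divided by transcript length and by library size). The terms matched 47 records. Of these, 9 that averaged 0.5 FPKM or more were set aside: 7 held the letters of axin inside another word, such as metaxin and syntaxin, and the others were sizzled and frzb3, which the choice left out by name. Another 10 records of the pathway lay under the limit, from wnt3A at 0.413 FPKM and Wnt inhibitory factor-1 at 0.276 FPKM down to Wnt-2b at 0.0312 FPKM. The last match, neuronal pentraxin I at 0.139 FPKM, was under the limit and also only held the letters of axin. Just inside the limit was secreted frizzled-related protein 5 (FRP5) at 0.523 FPKM. The 27 records fell into 6 ligands, 6 secreted inhibitors, 6 cytoplasmic components and 9 nuclear factors.

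Wnt ligands are secreted glycoproteins that bind frizzled receptors with LRP co-receptors. Without ligand, a destruction complex built on axin and adenomatous polyposis coli keeps cytoplasmic beta-catenin low; with ligand, dishevelled is recruited, the complex is inhibited, and beta-catenin enters the nucleus and acts with TCF and LEF proteins. In the frog embryo, maternal beta-catenin sets up the dorsal organizer, zygotic Wnt signals then act in ventrolateral mesoderm and in posterior neural tissue, and the organizer secretes inhibitors that hold Wnt signalling down on the dorsal and anterior side. Retinoic acid acts through the RAR nuclear receptors and is, like Wnt, a posteriorizing signal of the early axis.

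Embryos were exposed from cleavage stages on to 1 μM TTNPB, a synthetic agonist selective for RARs, to 1 μM AGN193109, an inverse agonist selective for RARs, or to 0.1% ethanol as vehicle, and were collected at stage 10.5, the early gastrula. An exposure had 8 libraries, split evenly between 2 clutches named D and E that were fertilized in vitro, and no genetic change is given for any group. Each library was a pool of 5 whole embryos from dishes of 25, and several pools may share a dish, so p-values measure the spread between pools and the independent sibships number 2. In whole-embryo RNA, fewer cells of a type and less RNA per cell cannot be told apart.

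Depth is unknown, since FPKM keeps none. Brachyury, a gastrula marker, lay between 93.7 and 179.5 FPKM in the 24 libraries. The 4 troponin records, markers of later muscle, lay between 0 and 3.88 FPKM. Some other gastrula markers reached down into that range. Goosecoid fell to 0.431 FPKM and gastrula epidermal cytokeratin to 0.585 FPKM, each in an AGN193109 library. In the same order, their lowest values were 1.76 and 1.43 FPKM in TTNPB and 6.18 and 0.893 FPKM in vehicle libraries. The retinoic acid converting enzyme, whose gene is induced by RAR ligands, had 205.3, 238.2 and 277.6 FPKM (lowest, median, highest) in TTNPB libraries, 3.11, 8.81 and 12.9 FPKM in AGN193109 libraries and 18.3, 25.4 and 34.7 FPKM in vehicle libraries, and the 3 ranges did not overlap. One library, AGN193109 4E, stood apart. Its median tested record was at 2.77 FPKM, against 4.23 to 5.76 FPKM in the other libraries, and its 10 highest records took 79.2% of all FPKM, against 44.1% to 62.8%. The 27 Wnt records summed to 265.6 FPKM there, against 465 to 547.5 FPKM elsewhere, and 17 of the 27 were lowest in it among the 8 AGN193109 libraries.

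**Figure D1:**
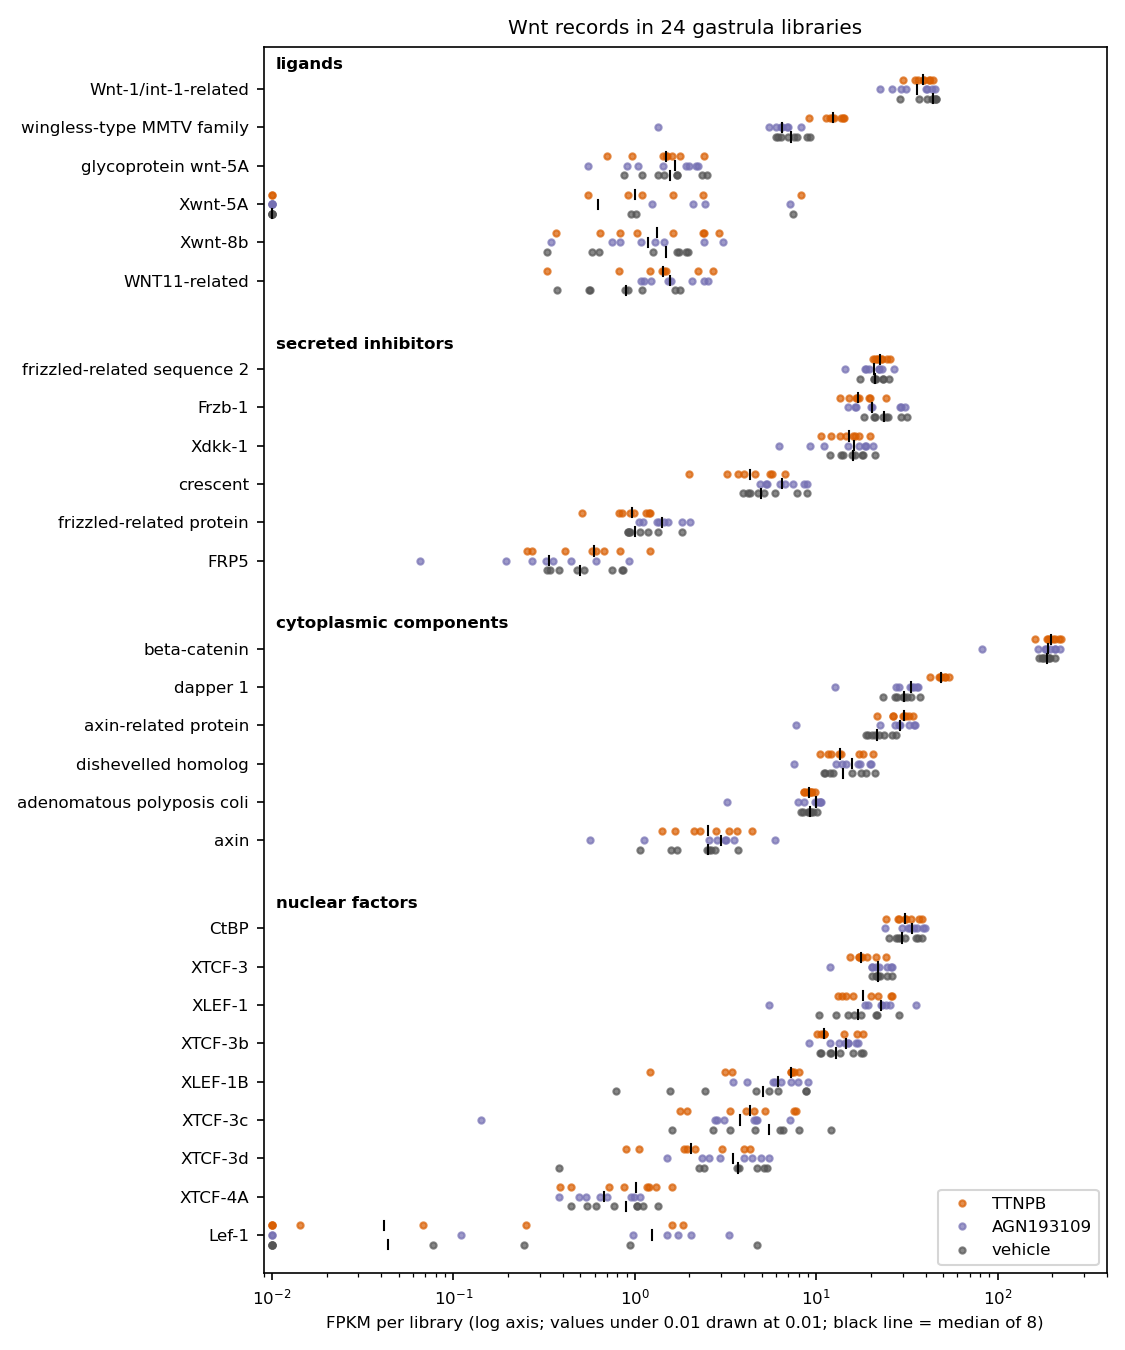
Level of each of the 27 Wnt records in each library, in FPKM on a log axis; points are libraries, coloured by exposure, and black lines are medians of 8. Beta-catenin is the highest record, every TTNPB point of dapper 1 lies right of the others, the TTNPB points of the wingless-type record overlap vehicle only at the ends, and Xwnt-5A and Lef-1 have many libraries at the left edge.

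Among the Wnt records, levels per length differed widely within each role. Beta-catenin, the transcriptional co-activator of the pathway, averaged 188 FPKM over the 24 libraries, higher than 99.4% of all records. Dapper 1, a dishevelled-binding modulator of Wnt signalling, averaged 36.4 FPKM, and axin-related protein, an axin-family scaffold, 26.2 FPKM. The highest ligand was the record described as Wnt-1/int-1-related, at 38.2 FPKM, and the next was the wingless-type MMTV integration site family record, at 8.58 FPKM; neither description says which family member it is. The remaining 4 ligand records averaged between 1.37 and 1.55 FPKM. Of the troponin records, slow troponin I averaged 1.37 FPKM and cardiac troponin C (2) 1.73 FPKM, a similar level. The others averaged 0.24 and 0.40 FPKM. Of the inhibitors, secreted frizzled-related sequence protein 2 averaged 21.7 FPKM, Frzb-1, an organizer protein that binds Wnts, 21.4 FPKM, and Xdkk-1, the Dickkopf that binds LRP co-receptors, 15.2 FPKM. The highest nuclear records were CtBP, a co-repressor described as a partner of Tcf-3, at 32.1 FPKM, XTCF-3, which represses Wnt targets without beta-catenin, at 20.9 FPKM, and XLEF-1, a factor that activates them with beta-catenin, at 19.5 FPKM.

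Summed by role, the 6 ligands reached 57.1 ± 2.54 FPKM in TTNPB libraries, 47.1 ± 9.50 FPKM in AGN193109 libraries and 53.7 ± 7.66 FPKM in vehicle libraries (SD, n = 8 each). The inhibitors summed to 61.5 ± 5.97 FPKM in TTNPB, 66.0 ± 10.9 FPKM in AGN193109 and 69.2 ± 7.51 FPKM in vehicle libraries. Cytoplasmic components summed to 302 ± 21.2 FPKM in TTNPB, 265.2 ± 63.9 FPKM in AGN193109 and 265 ± 13.8 FPKM in vehicle libraries. The nuclear factors summed to 96.0 ± 7.92 FPKM in TTNPB, 106.2 ± 18.4 FPKM in AGN193109 and 101.1 ± 6.05 FPKM in vehicle libraries. These sums were not tested, and in each role the ranges of the 3 exposures overlapped. Without AGN193109 4E the AGN193109 sums were 47.3 ± 10.2 FPKM for ligands, 69.0 ± 7.05 FPKM for inhibitors, 286.8 ± 20.3 FPKM for cytoplasmic components and 112.5 ± 3.99 FPKM for nuclear factors (SD, n = 7). The nuclear sums then ran from 83.3 to 104.3 FPKM in TTNPB and from 107.7 to 120.1 FPKM in the 7 AGN193109 libraries, without overlap. Vehicle libraries ran from 90.2 to 110.2 FPKM. This separation appeared only with AGN193109 4E left out, a choice made after its values were seen. How often sums of other records separate in this way was not computed. In the limma tests described below, none of the 7 nuclear records tested was called between TTNPB and AGN193109. Without AGN193109 4E the lowest adjusted p among them was 0.122 in limma, for XTCF-3.

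The first comparison asks what an RAR agonist does to the pathway's own transcripts. Tests were run on the 24 Wnt records that averaged 1 FPKM or more, of which 1 rose in TTNPB embryos against vehicle and none fell (adjusted p under 0.05 in a limma fit of log2(FPKM + 1) over all records); across all records 0.83% were called, 154 higher and 9 lower. The median log2 difference of the 24 was 0.00, with a range of -0.42 to 0.69, beside a median of 0.01 over all 19635 records tested. An unadjusted p under 0.05 was reached by 4 of the 24, and by 1158 of all 19635. The record that rose was dapper 1.

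Dapper 1 had 42.2, 48.6 and 53.8 FPKM (lowest, median, highest) in TTNPB libraries, 12.7, 33.3 and 36.3 FPKM in AGN193109 libraries and 23.3, 30.4 and 37.2 FPKM in vehicle libraries. Every TTNPB library lay above every library of the other exposures, and that held within each clutch against vehicle. The 8 TTNPB libraries averaged 48.8 ± 3.44 FPKM and the 8 vehicle libraries 30.1 ± 4.21 FPKM (SD), a log2 difference of 0.69 ± 0.16 (SE, adjusted p = 0.0271), or 1.61-fold; it was 0.64 within clutch E and 0.73 within clutch D. It was the only one of the 24 Wnt records whose 8 TTNPB and 8 vehicle libraries did not overlap, as 0.57% of all records did. In fits that left out 1 library at a time the difference stayed between 0.64 and 0.73, but the call was lost in 10 of 24 (TTNPB 1D, 1E, 2E, 3D, 3E and 4E, and vehicle 2D, 3E, 4D and 4E), with adjusted p from 0.053 to 0.0785, while without AGN193109 4E the adjusted p was 1.9e-06. The call was also lost with clutch means as replicates (adjusted p = 0.492) and in clutch E alone (adjusted p = 1). The fit of clutch E alone holds AGN193109 4E, which is in neither group compared but enters the shared spread. The cause of these losses was not tested.

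**Figure D2:**
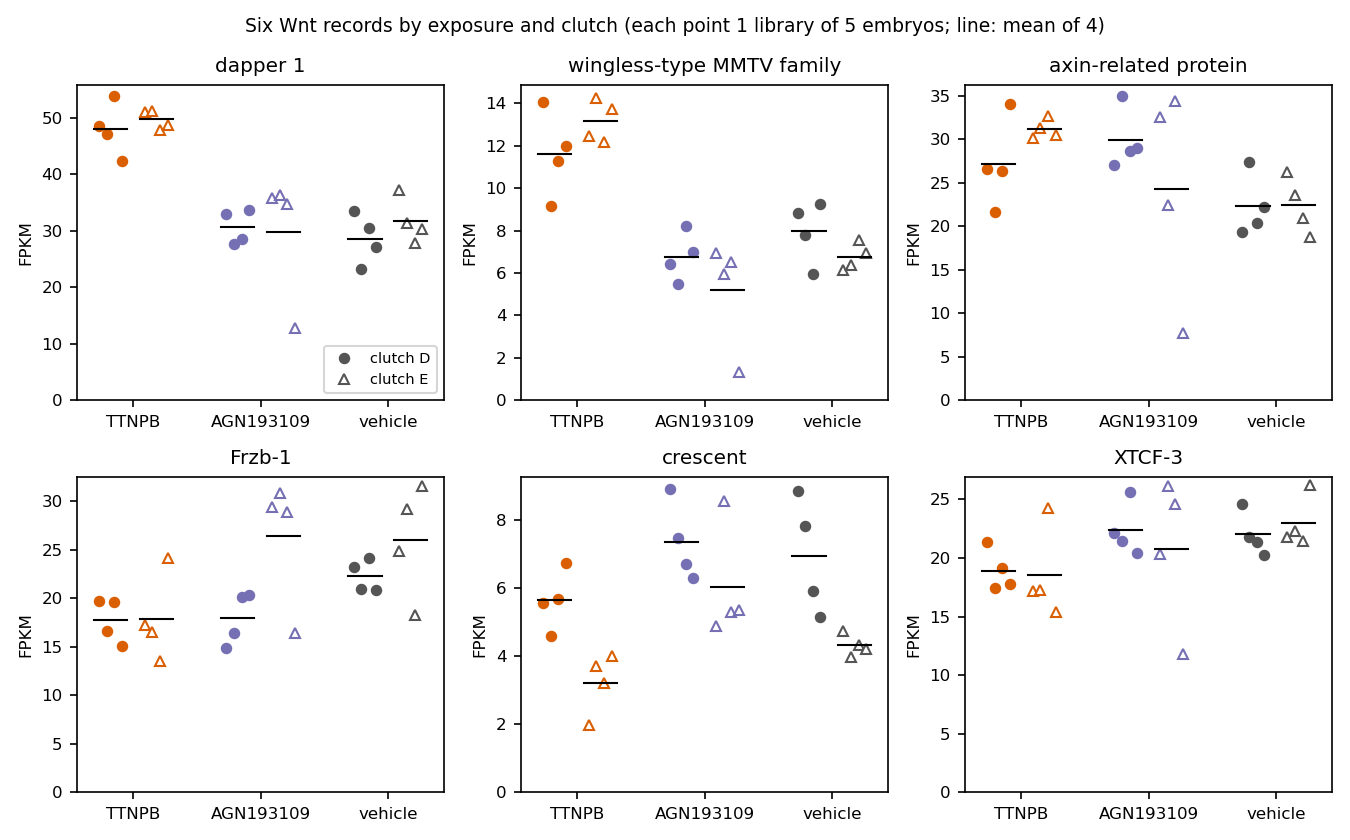
FPKM of 6 Wnt records by exposure and clutch; each point is 1 library, filled circles are clutch D, open triangles clutch E, and lines are means of 4. Dapper 1 in TTNPB libraries lies at 42.2 FPKM or above, and AGN193109 4E is the single low triangle in dapper 1, the wingless-type record, axin-related protein and XTCF-3.

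Among the ligands, none passed the threshold in TTNPB embryos against vehicle; their median log2 difference was 0.21. The wingless-type MMTV record had 9.14, 12.3 and 14.3 FPKM in TTNPB libraries, 1.34, 6.46 and 8.21 FPKM in AGN193109 libraries and 5.96, 7.25 and 9.28 FPKM in vehicle libraries. The TTNPB range touched the vehicle range only at its ends, and all 8 TTNPB libraries lay above the vehicle mean of their clutch. The share of all records with such a count against clutch means was not computed, for this or any record below. Its log2 difference was 0.68 ± 0.19 (SE, adjusted p = 0.143), and it was 0.87 in clutch E and 0.49 in clutch D. Without AGN193109 4E, which is in neither group but enters the shared spread, the difference was again 0.68 with an adjusted p of 0.000202. In 23 of the 24 fits that left out 1 library the record did not pass. It passed after quantile normalization, after upper-quartile scaling and with only the groups compared in the fit. Over all alternatives the adjusted p ran from 0.000202 to 0.983.

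The other ligand records gave smaller or less precise values. Wnt-1/int-1-related, the most abundant ligand record, had 30.1, 38.9 and 43.9 FPKM in TTNPB libraries and 29.1, 43.8 and 45.7 FPKM in vehicle libraries, a log2 difference of -0.10 with a 95% interval of -0.37 to 0.18. WNT11-related protein, of the family that acts in convergent extension, gave 0.29 ± 0.18 (SE) and Xwnt-8b, a Wnt of the early brain, 0.12 ± 0.21 (SE). The glycoprotein wnt-5A record, from the subfamily known for signalling without beta-catenin, gave -0.08 ± 0.18 (SE). Xwnt-5A was below 0.01 FPKM in 11 of 24 libraries, 2 of them TTNPB, 4 AGN193109 and 5 vehicle, and its difference of 0.49 had an interval of -0.34 to 1.32. The 2 Wnt-5A records may share reads, so how reads were split between them is uncertain.

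Of the 5 secreted inhibitors tested, none passed the threshold in TTNPB embryos against vehicle, with a median log2 difference of -0.12. Frzb-1 had 13.6, 17.0 and 24.2 FPKM in TTNPB libraries, 14.9, 20.2 and 30.8 FPKM in AGN193109 libraries and 18.2, 23.7 and 31.6 FPKM in vehicle libraries. None of the 8 TTNPB libraries lay above the vehicle mean of its clutch, though the whole ranges overlapped, and the difference was -0.42 ± 0.15 (SE, adjusted p = 0.429). Crescent, a frizzled-related inhibitor made by the organizer, gave -0.30 ± 0.14 (SE, adjusted p = 0.8), again with 0 of 8 TTNPB libraries above the vehicle mean of the clutch. How many of all records show 0 of 8 was not computed. Xdkk-1 had 10.7, 15.2 and 19.8 FPKM in TTNPB libraries and 11.9, 16.0 and 21.1 FPKM in vehicle libraries, with a difference of -0.10 and an interval of -0.49 to 0.30. The values for secreted frizzled-related sequence protein 2 and for the record described only as frizzled-related protein were 0.07 ± 0.11 and -0.12 ± 0.12 (SE). FRP5 lay between 0.255 and 1.22 FPKM in TTNPB libraries and between 0.326 and 0.859 FPKM in vehicle libraries and was too low for the test.

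The other cytoplasmic components did not pass the threshold. Axin-related protein had 21.7, 30.3 and 34.1 FPKM in TTNPB libraries, 7.68, 28.8 and 34.9 FPKM in AGN193109 libraries and 18.8, 21.6 and 27.4 FPKM in vehicle libraries. Its TTNPB libraries lay above the vehicle mean of their clutch in 7 of 8 cases, and above every vehicle library in clutch E but not in clutch D. Within a clutch this sets 4 libraries against 4, and the share of all records with such a split was not computed. The difference was 0.37 ± 0.21 (SE, adjusted p = 0.935), and 0.37 with an adjusted p of 0.0784 without AGN193109 4E. Beta-catenin had 161.4, 197.6 and 223.6 FPKM in TTNPB libraries and 169.4, 185.7 and 207.7 FPKM in vehicle libraries, a difference of 0.08 with an interval of -0.22 to 0.39. Adenomatous polyposis coli, the scaffold that helps hand beta-catenin to degradation, gave 0.00 with an interval of -0.31 to 0.31, and the dishevelled homolog, which relays the frizzled signal, gave -0.03 with an interval of -0.27 to 0.21. Axin, the core of the destruction complex, averaged 2.71 ± 1.04 FPKM in TTNPB and 2.31 ± 0.823 FPKM in vehicle libraries (SD, n = 8 each), a difference of 0.15 ± 0.24 (SE).

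**Figure D3:**
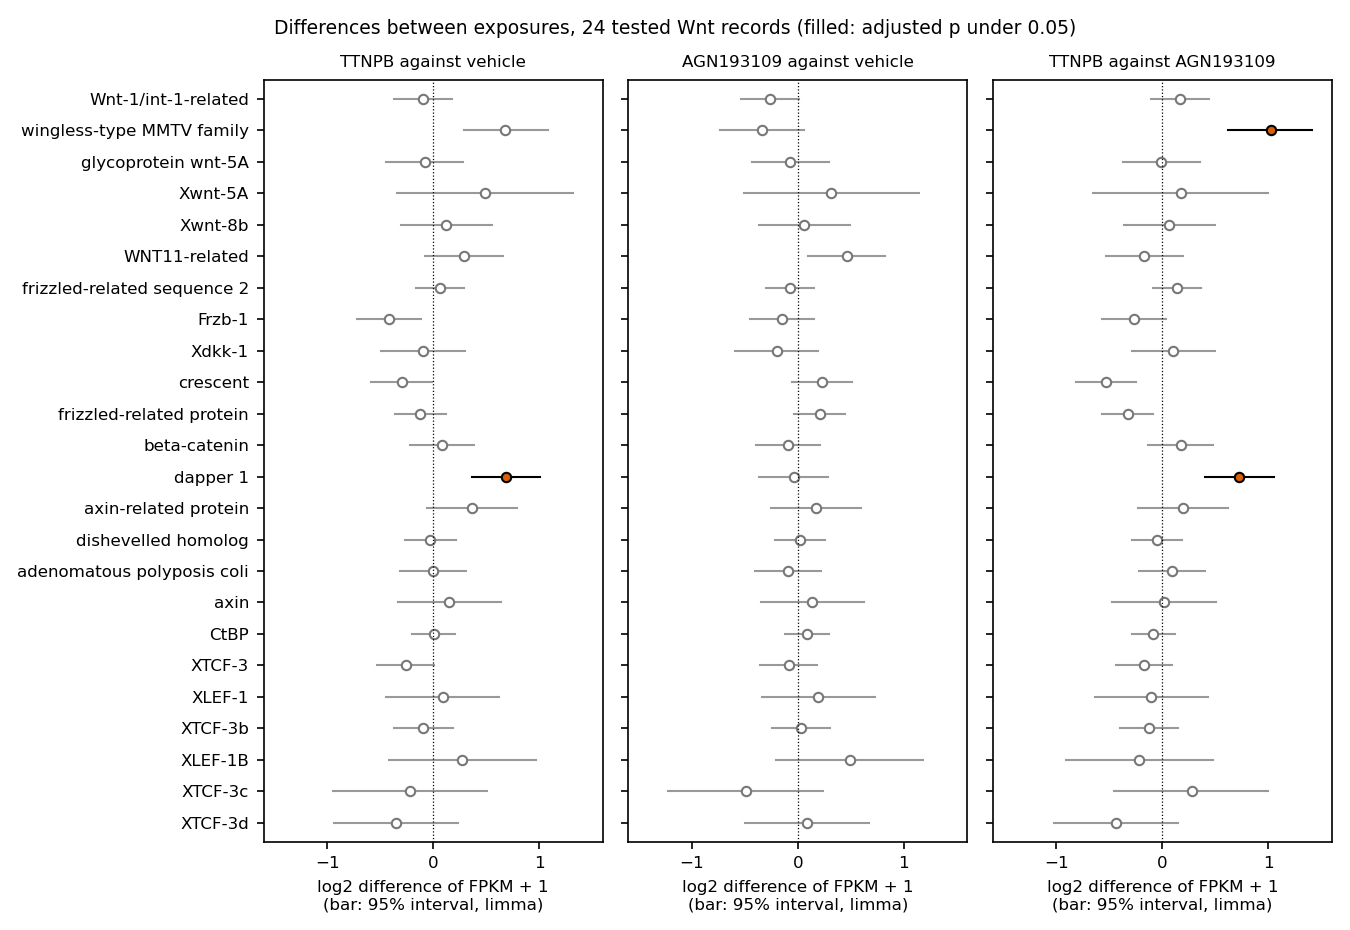
Difference of log2(FPKM + 1) for the 24 tested Wnt records in 3 comparisons of exposures; points are estimates, bars 95% intervals from limma, and filled points passed an adjusted p of 0.05. Dapper 1 is filled at 0.69 against vehicle and 0.73 against AGN193109, the wingless-type record at 1.02 against AGN193109, and the middle panel has no filled point.

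None of the 7 nuclear records tested passed the threshold, with a median log2 difference of -0.09. XTCF-3 had 15.4, 17.6 and 24.3 FPKM in TTNPB libraries and 20.3, 21.8 and 26.2 FPKM in vehicle libraries, and 1 of 8 TTNPB libraries lay above the vehicle mean of its clutch. The difference was -0.26 ± 0.13 (SE, adjusted p = 0.876). The records XTCF-3b, XTCF-3c and XTCF-3d gave -0.09, -0.22 and -0.35, with SE of 0.13, 0.35 and 0.28 in that order. These 4 records bear the name of the same factor and may share reads, so their separate values are uncertain. CtBP had 24.3, 31.0 and 38.5 FPKM in TTNPB libraries and 25.0, 29.9 and 38.5 FPKM in vehicle libraries, a difference of 0.00 with an interval of -0.20 to 0.21. XLEF-1 gave 0.09 ± 0.26 and XLEF-1B 0.27 ± 0.34 (SE). Lef-1 and XTCF-4A, at means of 0.81 and 0.847 FPKM, were below the limit of the test, and Lef-1 was below 0.01 FPKM in 9 of 24 libraries.

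The inverse agonist was compared with vehicle to ask whether lowering RAR activity shifts the same transcripts; the vehicle libraries are shared with the comparison above. None of the 24 Wnt records passed the threshold in limma with Benjamini-Hochberg adjustment, and 1 had an unadjusted p under 0.05; over all records 4 were called, or 0.0204%, and 1633 had an unadjusted p under 0.05. Their median log2 difference was 0.03, with a range of -0.49 to 0.49, beside -0.03 over all records. No Wnt record had non-overlapping AGN193109 and vehicle libraries, a background of 0.0357%. WNT11-related protein was the record under 0.05 before adjustment: it had 1.09, 1.56 and 2.54 FPKM in AGN193109 libraries and 0.371, 0.897 and 1.78 FPKM in vehicle libraries, a difference of 0.46 ± 0.18 (SE, adjusted p = 0.472), with 7 of 8 AGN193109 libraries above the vehicle mean of their clutch. Dapper 1 gave -0.04, with an interval of -0.36 to 0.28, and 0.13 without AGN193109 4E, and the wingless-type record -0.34 ± 0.19 (SE, adjusted p = 0.667), which was -0.13 without AGN193109 4E. The largest decrease and increase among point estimates were XTCF-3c at -0.49 ± 0.35 and XLEF-1B at 0.49 ± 0.34 (SE), neither past the threshold. Without AGN193109 4E, where XTCF-3c had 0.142 FPKM, they were -0.20 and 0.59, and the lowest estimate was Wnt-1/int-1-related at -0.31 (adjusted p = 0.262), against -0.26 with it. Axin-related protein gave 0.17 ± 0.21 (SE), and 0.40 with an adjusted p of 0.0884 without AGN193109 4E.

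Agonist and inverse agonist were then set against each other at the same 1 μM dose. Of the 24 Wnt records, 2 were higher in TTNPB than in AGN193109 embryos and none lower, dapper 1 and the wingless-type record; over all records 1.08% were called, 192 higher and 20 lower. The median of the 24 was 0.00, beside 0.05 over all records. The same pair were the only ones of the 24 whose libraries did not overlap between the 2 compounds, against 0.632% of all records.

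With 12.4 ± 1.69 FPKM in TTNPB and 5.98 ± 2.04 FPKM in AGN193109 libraries (SD, n = 8 each), the wingless-type record differed by 1.02 ± 0.19 on the log2 scale (SE, adjusted p = 0.00294), or 2.03-fold. Without AGN193109 4E it differed by 0.81 (adjusted p = 2.77e-05). Within clutch E it differed by 1.34 (adjusted p = 0.124) and within clutch D by 0.70 (adjusted p = 0.193), neither past the threshold alone. For dapper 1, at 48.8 ± 3.44 FPKM in TTNPB and 30.3 ± 7.76 FPKM in AGN193109 libraries (SD, n = 8 each), the difference was 0.73 ± 0.16 (SE, adjusted p = 0.0123), and 0.56 without AGN193109 4E (adjusted p = 6.42e-05). Within clutch E it differed by 0.82 (adjusted p = 0.439) and within clutch D by 0.63 (adjusted p = 0.0539), neither past the threshold alone. The dapper 1 call was also lost with only the 2 exposures in the fit (adjusted p = 0.0826), and both calls were lost when each clutch was averaged into 1 replicate (adjusted p = 0.319 for dapper 1 and 0.189 for the wingless-type record).

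Crescent had the lowest estimate of the 24. It had 1.98, 4.30 and 6.75 FPKM in TTNPB libraries and 4.88, 6.51 and 8.93 FPKM in AGN193109 libraries, and no TTNPB library lay above the AGN193109 mean of its clutch. The difference of -0.53 ± 0.14 (SE) missed the threshold (adjusted p = 0.0627); it passed when AGN193109 4D or TTNPB 4D was left out (adjusted p = 0.0444 and 0.0418; over all alternatives 0.0418 to 0.819). The record described as frizzled-related protein showed 0 of 8 TTNPB libraries above the AGN193109 mean as well, with -0.33 ± 0.12 (SE, adjusted p = 0.323). These counts of 0 of 8 have no background over all records.

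Whether TTNPB acted alike in both clutches was asked with the interaction of exposure and clutch. No Wnt record passed, and neither did any of the 19635 records tested (0%), with 509 at an unadjusted p under 0.05 in limma, 0 of them Wnt records. The dapper 1 responses in clutch E and clutch D differed by -0.09, with an interval of -0.76 to 0.57, and those of the wingless-type record by 0.37, with an interval of -0.40 to 1.15. Among the Wnt records the interval was widest for Xwnt-5A, at -1.09 to 2.22. These intervals are wider than the responses themselves.

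More records were called between clutches than between exposures. In clutch E against clutch D, 31.9% of all records were called, 732 higher and 5524 lower, with a median log2 difference of -0.20; quantile normalization moved that median by 0.20 and upper-quartile scaling by 0.19, so the values below are given with a scaling where it ends a call. Of the 24 Wnt records, 5 were called, 1 higher and 4 lower, to be read beside that background, and their median was -0.03. Without AGN193109 4E, 7 were called, beta-catenin (0.13, adjusted p = 0.0432) and XTCF-3b (0.35, adjusted p = 0.00209) being added, with 39.6% of all records; without vehicle 3E it was also 7. These differences are between 2 sibships, 1 for each clutch. Tissue markers were called between clutches too, to be read beside the same 31.9% of all records. Of 25 tested, 1 was higher in clutch E, gastrula epidermal cytokeratin at 2.75-fold. Another 6 were lower, among them brachyury (0.711-fold), Xvent-1 (0.58-fold) and the GATA-6 records (0.689-fold and 0.717-fold). These folds are ratios of FPKM + 1 from the deposited values, without either scaling. The part of the markers in the Wnt values was not tested.

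The dishevelled homolog differed most clearly between clutches. It averaged 11.9 ± 1.82 FPKM in clutch E and 18.1 ± 2.14 FPKM in clutch D (SD, n = 12 each), a log2 difference of -0.58 ± 0.09 (SE, adjusted p = 5.77e-05), and the difference was -0.35 under either scaling, still past the threshold. Xwnt-5A averaged 0.273 ± 0.543 FPKM in clutch E and 2.82 ± 2.997 FPKM in clutch D (SD, n = 12 each), a difference of -1.29 ± 0.33 (SE, adjusted p = 0.00398). In clutch E it was below 0.01 FPKM in 1 of 4 TTNPB, 4 of 4 AGN193109 and 4 of 4 vehicle libraries. In clutch D this held in 1 of 4 TTNPB, 0 of 4 AGN193109 and 1 of 4 vehicle libraries. The glycoprotein wnt-5A record, which may share reads with Xwnt-5A, gave -0.09 ± 0.14 between clutches (SE, limma adjusted p = 0.674). Xwnt-8b was higher, with 1.88 ± 0.813 FPKM in clutch E and 0.911 ± 0.479 FPKM in clutch D (SD, n = 12 each), a difference of 0.58 ± 0.17 (SE, adjusted p = 0.0115). Crescent (-0.50 ± 0.11, adjusted p = 0.00147) and CtBP (-0.28 ± 0.08, adjusted p = 0.0103) were lower in clutch E on the deposited scale, but after quantile normalization the differences were -0.26 and -0.06 and neither passed. With that scaling 9 Wnt records were called, 7 of them higher, among them Frzb-1 at 0.46 and XTCF-3b at 0.51, and 27.5% of all records were called, 2586 higher and 2814 lower. With the 8 vehicle libraries alone only the dishevelled homolog was called, at -0.61 (adjusted p = 0.00922), beside 17% of all records. In the 12 clutch E and 12 clutch D libraries, the ranges of each of the 27 records overlapped. The share of all records whose clutch ranges overlap was not computed, so this has no background.

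**Figure D4:**
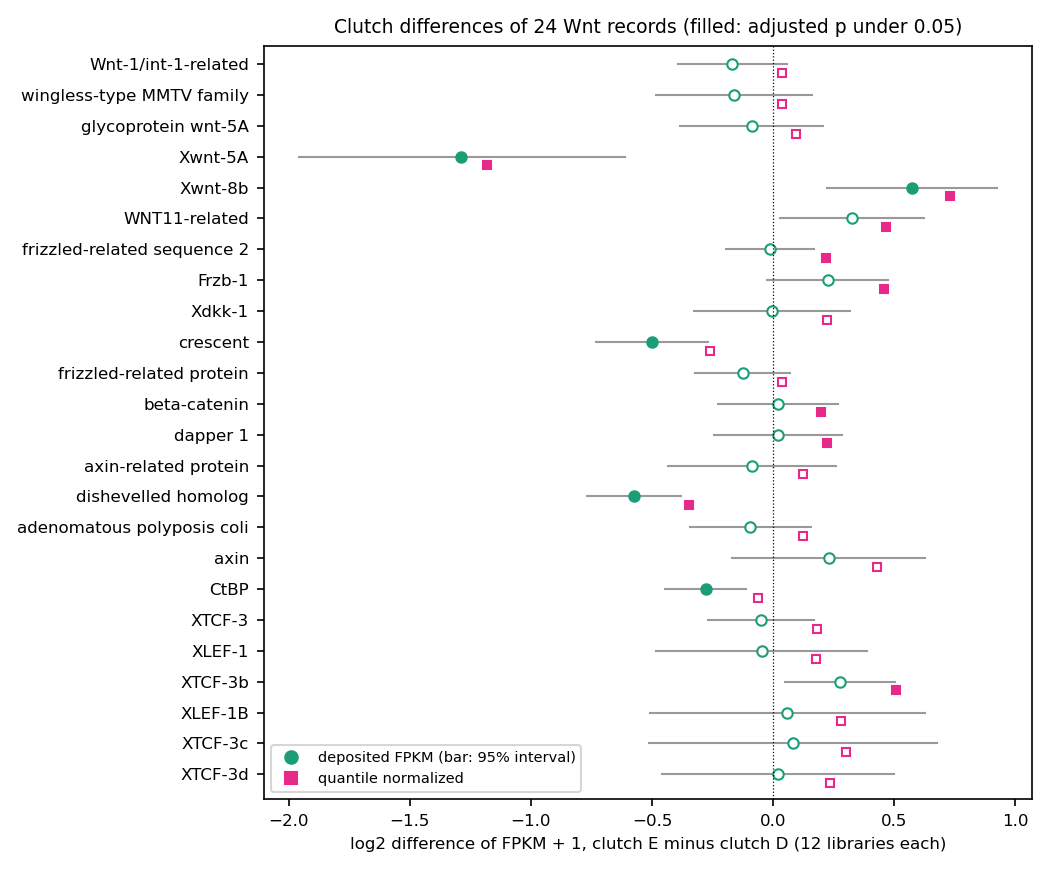
Difference of log2(FPKM + 1) between clutch E and clutch D for the 24 tested Wnt records; circles with 95% intervals use the deposited values, squares the same fit after quantile normalization, and filled marks passed an adjusted p of 0.05. Squares lie right of their circles, as the median of all records moved by 0.20; the dishevelled homolog and both Xwnt records named in the text are filled in either form.

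The receptors, partners and targets of the pathway were read from 7 further lists, chosen by textbook role with earlier results of these data known. Several frizzleds and a Dickkopf receptor were higher in TTNPB embryos: of 17 receptor and co-receptor records, 16 were tested against vehicle, 4 were called higher and none lower, beside 0.83% of all records. Their median log2 difference was 0.10. Kremen2, a transmembrane receptor for Dickkopf that helps to block LRP co-receptors, had 2.93, 6.63 and 10.1 FPKM in TTNPB libraries, 0.952, 1.20 and 2.10 FPKM in AGN193109 libraries and 1.08, 1.71 and 2.66 FPKM in vehicle libraries. Its difference against vehicle was 1.48 ± 0.15 (SE, adjusted p = 6.79e-07), and the TTNPB and vehicle ranges did not overlap, as for 0.57% of all records.

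Among the frizzleds, the receptors that bind Wnt ligands, frizzled-10A had 15.7, 21.4 and 34.8 FPKM in TTNPB libraries, 4.80, 7.67 and 11.8 FPKM in AGN193109 libraries and 7.97, 11.3 and 14.9 FPKM in vehicle libraries, a difference against vehicle of 0.95 ± 0.18 (SE, adjusted p = 0.00432). Frizzled 4 had 10.8, 14.0 and 16.0 FPKM in TTNPB libraries and 5.88, 7.19 and 8.37 FPKM in vehicle libraries, a difference of 0.87 ± 0.15 (SE, adjusted p = 0.00188). The record matched by gene number to fzd6.S had 1.96, 3.58 and 5.43 FPKM in TTNPB libraries and 0.648, 1.55 and 2.02 FPKM in vehicle libraries, 0.89 ± 0.15 (SE, adjusted p = 0.00108). The TTNPB and vehicle ranges of frizzled-10A and frizzled 4 did not overlap, as for 0.57% of all records, and those of fzd6.S did at the ends. Values for the most abundant receptors were near 0: frizzled 7 gave -0.08 ± 0.17 and the higher of the LRP6 records 0.00 ± 0.30 (SE). The same 4 records were higher in TTNPB than in AGN193109 embryos, beside 1.08% of all records called. None of the 16 passed the threshold between AGN193109 and vehicle, where 0.0204% of all records were called. In that last comparison 2 of the 16 had an unadjusted p under 0.05 in limma, as did 1633 of all 19635 records. With clutch means as replicates the count in TTNPB against vehicle was 0, and in clutch D alone it was 1. In TTNPB against AGN193109 the count ran from 1 to 4 over all alternatives.

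Of 20 records for zygotic Wnt targets, 7 were higher in TTNPB embryos against vehicle and none lower, with a median of 0.22, beside 0.83% of all records called and a median of 0.01. They were 2 GBX-2 records, 2 Meis3 records, HoxD1, cdx4 and frizzled-10A, which stands on both lists; HoxD1 also served, with the retinoic acid converting enzyme, as a check of RAR activity. GBX-2 and Meis3 are homeodomain factors of the posterior neural plate, and HoxD1 and cdx4 are factors of posterior identity. HoxD1 had 28.1, 34.4 and 41.7 FPKM in TTNPB libraries, 5.20, 5.86 and 8.79 FPKM in AGN193109 libraries and 6.13, 9.76 and 13.6 FPKM in vehicle libraries, 1.75 ± 0.12 against vehicle (SE, adjusted p = 3.57e-10). The record Xgbx-2 gave 2.01 ± 0.16 (SE, adjusted p = 4.06e-09) and cdx4 1.12 ± 0.14 (SE, adjusted p = 1.15e-05). Brachyury, a mesodermal target, gave -0.09 ± 0.09 and Xvent-1, a ventral one, 0.20 ± 0.15 (SE), neither past the threshold. With these, 13 of the 20 were not called, among them Mespo, Tbx6, cyclin D1, the myc records and the other vent records. Whether the 7 calls reflect Wnt signalling or RAR activity was not tested. As for the receptors, the same 7 were higher in TTNPB than in AGN193109 embryos, beside 1.08% of all records called. Over all alternatives that count ran from 4 to 8. None of the 20 was called between AGN193109 and vehicle, where 0.0204% of all records were called. In that last comparison 5 of the 20 had an unadjusted p under 0.05 in limma, as did 1633 of all 19635 records. HoxD1 gave -0.56 ± 0.12 there (SE, adjusted p = 0.121).

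**Figure D5:**
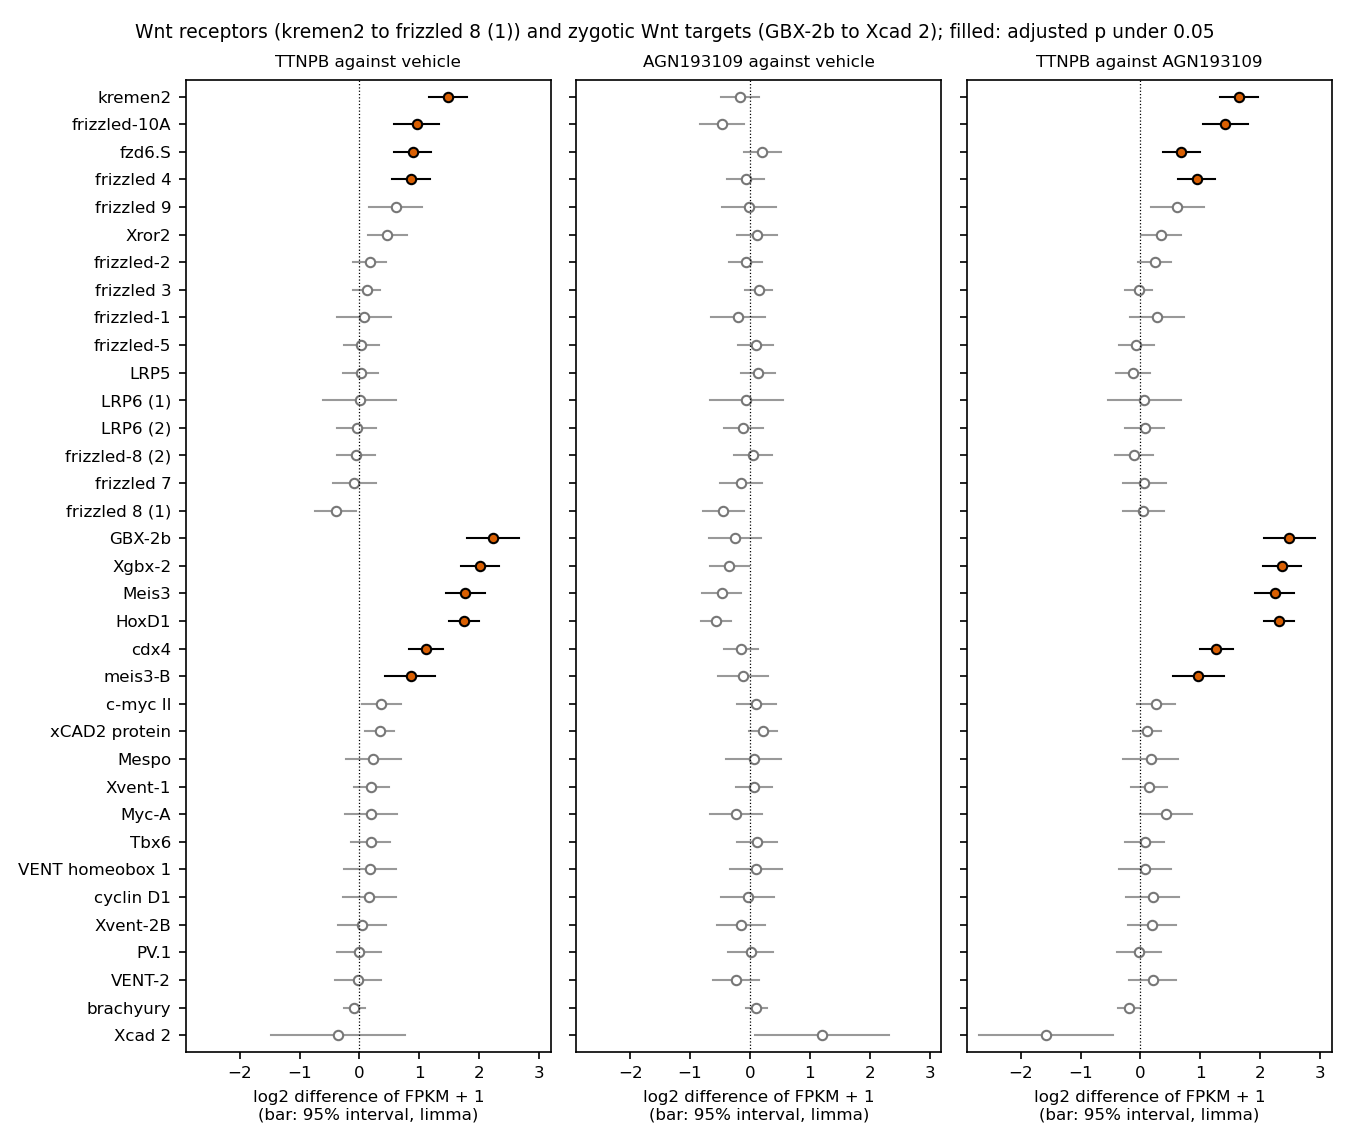
Difference of log2(FPKM + 1) for the 16 tested Wnt receptor records and for the zygotic Wnt targets in 3 comparisons of exposures; bars are 95% intervals, filled points passed an adjusted p of 0.05, and frizzled-10A is drawn once, with the receptors. Filled points lie at 0.87 to 1.48 for 4 receptors and reach 2.23 for GBX-2b against vehicle.

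The remaining lists had no call in any comparison of exposures. They were fitted only with AGN193109 4E, which enters the shared spread, and whether calls appear without it was not tested. Of all records, 0.83% were called in TTNPB against vehicle, 0.0204% in AGN193109 against vehicle and 1.08% in TTNPB against AGN193109. Beside such shares, lists this short can hold no call without differing from other records. The lists were 6 dorsal Wnt targets, 20 tested records of kinases and partners of the destruction complex, 9 of planar polarity, 10 nuclear cofactors, and 6 of Wnt secretion and extracellular modulators. The dorsal targets had the lowest median against vehicle, -0.28 in TTNPB and -0.21 in AGN193109 embryos. Goosecoid, an organizer homeobox gene, had 1.76, 5.36 and 8.94 FPKM in TTNPB libraries, 0.431, 6.49 and 13.2 FPKM in AGN193109 libraries and 6.18, 9.72 and 12.2 FPKM in vehicle libraries, a difference of -0.64 ± 0.32 in TTNPB and -0.56 in AGN193109 embryos (SE, adjusted p = 0.876 and 0.676). The lowest sum of the 4 organizer markers, goosecoid among them, was 30 FPKM, in an AGN193109 library of clutch E. How far the AGN193109 values of goosecoid and of the dorsal list rest on AGN193109 4E was not computed. Siamois, a direct target of maternal beta-catenin, gave -0.37 ± 0.18 in TTNPB embryos (SE, adjusted p = 0.868). Of 25 tissue markers tested, 2 were higher in TTNPB embryos against vehicle and none lower, beside 0.83% of all records called. One was Lhx1, an organizer homeobox gene that is not on the list of dorsal targets, with 17.1, 22.9 and 31.7 FPKM in TTNPB libraries and 8.65, 12.2 and 16.3 FPKM in vehicle libraries (0.91 ± 0.17, SE, adjusted p = 0.00492). The other was gastrula epidermal cytokeratin, a marker of non-neural ectoderm, with 9.94 FPKM at the median in TTNPB libraries and 3.45 FPKM at the median in vehicle libraries, with overlapping ranges (1.11 ± 0.25, SE, adjusted p = 0.0221). Summed over each list, the 4 organizer markers ran from 70.7 to 118.4 FPKM in TTNPB and from 79.1 to 97.2 FPKM in vehicle libraries, and the 2 non-neural ectoderm markers from 18.7 to 41.1 FPKM in TTNPB and from 15.0 to 33.1 FPKM in vehicle libraries. Their part in the Wnt values was not tested. The planar polarity record matched to prickle3.L gave 0.64 ± 0.19 in TTNPB embryos (SE, adjusted p = 0.175).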

How the data were processed

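FPKM values, as deposited by the authors, were read for 31306 GenBank records and 24 libraries. Per the labels' protocols, RNA of 5-embryo pools was amplified with the NuGEN Ovation kit and sequenced on ABI SOLiD. TopHat, Bowtie and Cufflinks were used, per the submitters' processing notes, with no version there, and what reads were aligned to is not stated there or in the labels. Of the replicates that the labels describe, 4 per exposure and clutch were analysed here. Amplification and splitting of reads between near-identical records can affect low values.

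Values were transformed to log2(FPKM + 1), which understates the change of low records. Folds are ratios of FPKM + 1. The 19635 records averaging 1 FPKM or more were tested. One limma fit (version 3.58.1, R 4.3.3, trended empirical Bayes) with exposure and clutch gave the contrasts; a second added their interaction. Benjamini-Hochberg adjustment ran across every record tested. Members, lists and the rule for named records were chosen with earlier results of these data known: records past the threshold, best-known members, the 3 highest per role, the largest differences, and the largest clutch differences. Some receptor and partner names (fzd6.S, prickle3.L) came from gene numbers in RefSeq assembly Xenopus_laevis_v10.1. Correlations between the 276 library pairs ran from 0.756 to 0.953, and none were identical. Alternatives were pseudocounts, filters, scalings, covariates, subsets and each library left out.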

Additional observations from a re-analysis of the deposited data

Results flagged for a closer look

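In 81 groups of 8 libraries (27 records in 3 exposures), the highest or lowest library was compared with the rest. Of those libraries, 12 lay far from the other 7, where chance gives about 1 group in 20 if values are normally distributed. Of these, 9 were the lowest AGN193109 library, 4E. It had 82.38 FPKM of beta-catenin, against 167.6 to 220.1 FPKM in the other AGN193109 libraries, 12.73 FPKM of dapper 1, against 27.64 to 36.29 FPKM, and 7.684 FPKM of axin-related protein, against 22.43 to 34.92 FPKM. In the same library the dishevelled homolog had 7.562 FPKM, against 12.85 to 19.97 FPKM, adenomatous polyposis coli 3.234 FPKM, against 7.975 to 10.55 FPKM, and the wingless-type record 1.338 FPKM, against 5.465 to 8.208 FPKM. The nuclear records XLEF-1 (5.458 FPKM, others 18.67 to 35.34), XTCF-3 (11.84 FPKM, others 20.34 to 26.09) and XTCF-3c (0.1418 FPKM, others 2.771 to 7.159) were low there too. The low median and the large share of the highest records in that library move with these values; their part in them was not tested.

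The other 3 were single vehicle libraries, no more than 1 in 20 of the 81 groups. Lef-1 and Xwnt-5A were below 0.01 FPKM in 4 and 5 of the 8 vehicle libraries. Such values are not normally distributed, so that rate does not hold for these records. Lef-1 was at 4.727 FPKM in vehicle 4E, while the other vehicle libraries reached at most 0.9416 FPKM. Xwnt-5A was at 7.478 FPKM in vehicle 2D, with the others at most 1.018 FPKM. XTCF-3d was at 0.3809 FPKM in vehicle 1E, with the others between 2.255 and 5.348 FPKM.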

How the results depend on the processing

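The number of Wnt records called in TTNPB against vehicle was 1 as reported, 2 after quantile normalization, after upper-quartile scaling and with only the groups compared in the fit, and 0 with clutch means as replicates, in clutch E alone and at an adjusted p of 0.01. Leaving out 1 library at a time gave 0 to 2, and 2 only without AGN193109 4E. For TTNPB against AGN193109 it was 2 as reported, 1 with only the groups compared and at an adjusted p of 0.01, and 0 with clutch means, in clutch D alone and in clutch E alone. For clutch E against clutch D it was 5 as reported, 9 under either scaling, 1 with vehicle libraries alone and 3 at an adjusted p of 0.01. For AGN193109 against vehicle and for the interaction it was 0 under every alternative run. The clutch difference of secreted frizzled-related sequence protein 2 was -0.01 as reported, and 0.22 under quantile normalization and 0.22 under upper-quartile scaling, both past the threshold; these scalings move the clutch median of all records by 0.20 and 0.19. Of the calls, the share that was higher moved over 10 percentage points under scaling for the clutch term (11.7% to 47.9%), for TTNPB against AGN193109 (90.6% to 80.4%) and for AGN193109 against vehicle (25% to 50%, of 4 and 6 calls). With the replicate block the Wnt counts were 1, 0, 2 and 0 for the 3 comparisons of exposures and the interaction. Of 24 same-label pairs, 1 deviated together with a correlation over 0.1 (range -0.115 to 0.119). With 4 libraries per exposure and clutch, that check cannot tell whether pools of the same label shared a dish or handling. Counts over all records differed by over 1.5 times: for TTNPB against vehicle (163) they were 86 at a mean of at least 5 FPKM, 275 with only the groups, 26 with clutch means, 48 in clutch D, 63 in clutch E, 101 at an adjusted p of 0.01 and 300 without AGN193109 4E; for TTNPB against AGN193109 (212), 121 at that limit, 46 with clutch means, 79 in clutch D and 119 in clutch E; for clutch (6256), 3745 at that limit, 3340 with vehicle libraries alone and 3932 at an adjusted p of 0.01; for AGN193109 against vehicle (4), 0 to 16, with 16 without AGN193109 4E and 7 without vehicle 4D; for the interaction (0), 2 with no limit and 3 without TTNPB 4D. The receptor and target lists were run under the same alternatives, a choice made after seeing the data: of the receptors, 0 with clutch means, 1 in clutch D, 2 at a mean of at least 5 FPKM and at most 5 were called against vehicle (4 as reported), and of the targets 4 to 7 (7 as reported). Depth is unknown, and 8 pools from 2 clutches limit each interval.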

Other observations

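Records that name the same factor agreed to different degrees. Across all 24 libraries, Xwnt-5A and the glycoprotein wnt-5A record had a Pearson correlation of log2 values of -0.06, XTCF-3 and XTCF-3b 0.49, and XLEF-1 and XLEF-1B 0.33, given as a description; the libraries come from 2 clutches and 3 exposures, whose differences enter these values. XTCF-4A, too low for the main test, was tested with the lower limit of 0.5 FPKM, where its TTNPB response in clutch E minus that in clutch D was -0.84 ± 0.23 (SE, adjusted p = 0.882 over 22630 records). The TTNPB libraries of clutch D lay above the vehicle libraries of clutch D, and those of clutch E overlapped. Each of these sets 4 libraries against 4 at a mean of 0.847 FPKM. The share of all records with such a split was not computed.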
